A study of Mus musculus with 9 samples.

Results

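The genes described here are the mitochondrial ribosomal protein genes, 77 protein-coding genes among 12003 in the table of mouse alveolar macrophage expression. They were chosen by name alone, as protein-coding genes of the GENCODE M21 annotation whose symbol starts with Mrpl or Mrps and a digit, with pseudogenes left out. The annotation holds 78 such genes, and Mrpl33 is not analysed here because its identifier is not among the 12003. Of the 77, 48 carry an Mrpl symbol and 29 an Mrps symbol. Alveolar macrophages, the resident macrophages of the air spaces, were washed from the lungs of C57BL/6 mice and enriched with magnetic beads against CD11c, and their poly(A) RNA was sequenced from untreated animals at steady state, 8 to 12 weeks old. Vhl KO mice, genotype Vhl(flox/flox) with CD11c (cre/+), were set against Cre control mice, genotype Vhl(+/+) with CD11c (cre/+), and against floxed control mice, genotype Vhl(flox/flox) with CD11c (+/+) and so no Cre. Each genotype had 3 libraries, and each library was a pool of 5 to 7 mice of matched sex and age, so the spread between libraries is a spread between pools. The CD11c promoter that drives Cre is active in dendritic cells as well as in alveolar macrophages, and the beads select both, so a pool need not be 1 cell type. The Vhl product is the part of a ubiquitin ligase that recognises the alpha subunits of hypoxia-inducible factors and marks them for breakdown.

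The mitochondrial ribosome, or mitoribosome, sits in the mitochondrial matrix and makes the few proteins of the respiratory chain and ATP synthase that are encoded in mitochondrial DNA. Its ribosomal RNAs come from mitochondrial DNA, but all of its proteins are encoded in the nucleus, made in the cytosol and imported. Some are counterparts of bacterial ribosomal proteins, and others arose with the mitochondrion and have none. By their place in the particle, 50 of the 77 products belong to the large subunit, which forms peptide bonds, and 26 to the small subunit, which reads the messenger RNA. Mrps36 belongs to neither, since its product (KGD4) is now known as an adaptor of the 2-oxoglutarate dehydrogenase complex. Mrps30 and Mrps18a have names of the small subunit, but their products (mL65 and mL66) sit in the large subunit and are counted there. By the unified protein names, 45 products have a bacterial counterpart and 31 are named as mitochondria-specific.

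The members are scattered over 17 chromosomes of the table's genome build, GRCm38, with 11 on chromosome 11, 8 on chromosome 17 and 7 on chromosome 6. Promoters are shown here for 4 members whose level was lower in Vhl KO, because a shared promoter feature would be looked for there. That of Mrpl17, a large-subunit gene whose level was not called different, is shown as a window with motif matches and not as a typical member without a call. Each sequence is the 250 bases before the start annotated by RefSeq on GRCm38.p6, read on the gene's own strand, and capitals mark matches to the motifs listed after them. The windows are chr19:11770165-11770414 on the plus strand for Mrpl16, chr2:28467816-28468065 on the plus strand for Mrps2, chr2:24975099-24975348 on the minus strand for Mrpl41, chr4:126046678-126046927 on the plus strand for Mrps15 and chr7:105811088-105811337 on the minus strand for Mrpl17. RefSeq and GENCODE do not place all starts alike, and the last 24 bases of the Mrpl16 window, 3 of the Mrps15 window and 12 of the Mrpl17 window lie inside the gene as GENCODE gives it. The windows of Mrpl18 and Mrpl47 lie inside it with all 250 bases, so these are not shown.
Mrpl16: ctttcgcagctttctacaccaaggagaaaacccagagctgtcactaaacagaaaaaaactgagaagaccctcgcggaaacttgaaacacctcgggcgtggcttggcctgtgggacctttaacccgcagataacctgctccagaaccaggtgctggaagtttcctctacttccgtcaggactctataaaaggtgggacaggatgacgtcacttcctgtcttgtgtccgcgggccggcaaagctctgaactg
Mrps2: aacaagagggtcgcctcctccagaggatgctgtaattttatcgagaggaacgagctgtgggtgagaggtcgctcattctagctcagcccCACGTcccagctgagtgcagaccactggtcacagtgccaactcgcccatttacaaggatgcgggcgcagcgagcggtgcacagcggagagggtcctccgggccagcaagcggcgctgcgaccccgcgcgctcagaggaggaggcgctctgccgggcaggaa
Mrpl41: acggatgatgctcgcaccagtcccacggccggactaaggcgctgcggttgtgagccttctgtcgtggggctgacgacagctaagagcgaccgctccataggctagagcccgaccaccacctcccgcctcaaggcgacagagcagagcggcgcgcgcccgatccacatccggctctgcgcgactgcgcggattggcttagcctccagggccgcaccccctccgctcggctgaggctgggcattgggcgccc
Mrps15: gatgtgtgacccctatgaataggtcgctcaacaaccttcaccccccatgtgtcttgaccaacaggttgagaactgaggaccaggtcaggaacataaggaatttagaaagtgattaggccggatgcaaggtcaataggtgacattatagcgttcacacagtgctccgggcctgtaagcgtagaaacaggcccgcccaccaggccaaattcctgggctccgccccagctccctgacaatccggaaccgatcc
Mrpl17: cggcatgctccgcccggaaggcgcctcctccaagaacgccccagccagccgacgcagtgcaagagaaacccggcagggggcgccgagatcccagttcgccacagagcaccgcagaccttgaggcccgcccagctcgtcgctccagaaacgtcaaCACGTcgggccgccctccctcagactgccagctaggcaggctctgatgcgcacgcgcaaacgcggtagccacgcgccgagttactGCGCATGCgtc

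Motifs of factors known for nuclear genes of mitochondria, and of hypoxia-inducible factors, were searched as exact letters on both strands of the 300-base windows around the start, which RefSeq gives for 68 of the 77 members. The letters of NRF1, a master factor of nuclear genes for mitochondria, were GCGCATGC. They stood in any window of 7 of 68 members (10.3%), beside 6.16% of the 9241 table genes with windows. The letters of GABPA (NRF2), CCGGAAGT, stood in 11 of 68 (16.2%), beside 9.79%. Those of YY1, AAGATGGCG, stood in 8 of 68 (11.8%), beside 3.85%. The hypoxia response letters ACGTG stood in 16 of 68 (23.5%), beside 29.7%, and the E-box CACGTG, bound by Myc and its relatives and containing ACGTG, stood in 5 of 68 (7.35%), beside 12.0%. These shares are descriptions with no test. Of the 6 members lower in Vhl KO, Mrps2 held ACGTG as its reverse complement 161 bases before the start and Mrpl16, Mrpl41 and Mrps15 held none of these letters in the window. For Mrpl18, with the GABPA letters 240 bases before the RefSeq start, and Mrpl47, with none, the window lies within the gene span of GENCODE, so it may not be the promoter in use. Mrpl17 held the NRF1 letters 11 bases and the ACGTG letters 96 bases before its start. It was the only member with both, so it does not stand for the members without a call. None of these letters was shared by any 2 of the 6 lower members in the RefSeq windows.

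Libraries held 18201116 to 25861174 reads, and values are normalized reads, which are CPM values (counts relative to library size) multiplied by a further factor per library, and not divided by gene length. Vhl itself, the check of the labels, was at 2.02, 2.14 and 2.52 normalized reads in the Vhl KO pools, against 24.0, 21.9 and 25.3 in Cre control pools and 21.0, 14.9 and 18.4 in floxed control pools. All 11 alveolar macrophage markers looked for were measured in every group, and their summed level was 34378 to 47397 normalized reads in Vhl KO, 24265 to 28294 in Cre control and 25788 to 29351 in floxed control. Of the 11, 4 were called higher in Vhl KO (Marco, Fabp4, Pparg and Chil3) and 3 lower (Siglecf, Car4 and Krt79). Most of the sum was Chil3, and the other 10 summed to 8947 to 9340 in Vhl KO, 8604 to 10196 in Cre control and 7953 to 9015 in floxed control, which overlap. All 9 dendritic cell markers were called lower in Vhl KO than in both controls together, with 9 lower against floxed control and 7 against Cre control. They summed to 20.03 to 21.1 normalized reads in Vhl KO, 84.6 to 183 in Cre control and 69.0 to 148 in floxed control. None of the 9 was at 0 in every library. None of the 7 T, B and NK cell markers is among the 12003 genes, and of the 3 neutrophil and 2 red cell markers measured none was called. The neutrophil markers summed to 31.4 to 171 normalized reads in Vhl KO, 4.66 to 124 in Cre control and 30.8 to 308 in floxed control. The red cell markers summed to 0.204 to 19.5, 9.63 to 33.4 and 7.27 to 49.6 in the same order. Both sums varied widely between pools of the same genotype. Of 7 markers of interstitial macrophages or monocytes, 3 were called lower (Cx3cr1, C1qa and C1qb) and 1 higher (Ccr2) in Vhl KO than in both controls together. Against floxed control 3 were lower and 0 higher, and against Cre control 0 were lower and 1 higher. The 7 summed to 129 to 158 in Vhl KO, 115 to 172 in Cre control and 163 to 234 in floxed control. The 4 lung epithelium markers measured, 1 of them called lower (Epcam), summed to 53.0 to 78.7 normalized reads in Vhl KO, 146 to 224 in Cre control and 86.8 to 236 in floxed control. Floxed control 3 stood apart for the members before any comparison was made. It was the lowest of the 9 libraries for 43 of 77 members, Vhl KO 3 was the lowest for 19, and floxed control 1 was the highest for 23. Its deposited scaling also differed: without the scaling factor its values were 0.10 higher on the log2 scale in the median gene, against shifts of -0.05 to 0.01 in the other 8 libraries, and it was then lowest for 19 members and Vhl KO 3 for 35.

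As a whole, the mitochondrial ribosomal protein genes moved little with loss of Vhl. No member was called higher and 6 of 77 (7.79%) were called lower in Vhl KO than in both controls together (limma, adjusted p under 0.05), while 39.8% of all genes tested were called in either direction, 19.7% higher and 20.2% lower. The lower members were Mrpl16, Mrps2, Mrpl18, Mrpl41, Mrps15 and Mrpl47, and the mean in Vhl KO was 78.5% of the control mean for Mrpl16, which fell the most of them. The log2 fold changes of the 77 members ran between -0.35 (Mrpl52) and 0.22 (Mrpl54), with a median of -0.05, beside a median of -0.0022 over all genes. No member's estimate, fitted on log2(value + 1), exceeded 1.5-fold in either direction, while 15.8% of all genes did. That scale understates the change of low genes. The plain mean of Mrpl23, the least abundant member, in Vhl KO was 60.2% of the control mean. Its groups overlapped and it was not called (limma adjusted p = 0.258), and its value is uncertain, as given below. Because a missed threshold does not show that values did not differ, the intervals matter here: the 95% interval of the fold change lay within 1.5-fold either way for 75 of 77 members (97.4%), all but Mrpl23 and Mrpl52, and for 67.8% of all genes. That interval reached 0.187 to either side of the estimate in the median member and 0.197 in the median gene of the table, on the log2 scale. At an unadjusted p under 0.05 there were 16 of 77 members, beside 5750 of all 12003 genes. The count of 6 became 3 without Vhl KO 3 (Mrpl16, Mrpl18 and Mrps2), 10 without floxed control 3 and 12 without the scaling factor, all of them lower. The median of -0.05 became -0.01 without Vhl KO 3 or floxed control 1, -0.09 without Vhl KO 1, and -0.10 without floxed control 3 or without the scaling factor. In bulk RNA, fewer cells of a type and less RNA per cell cannot be told apart.

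**Figure D1:**
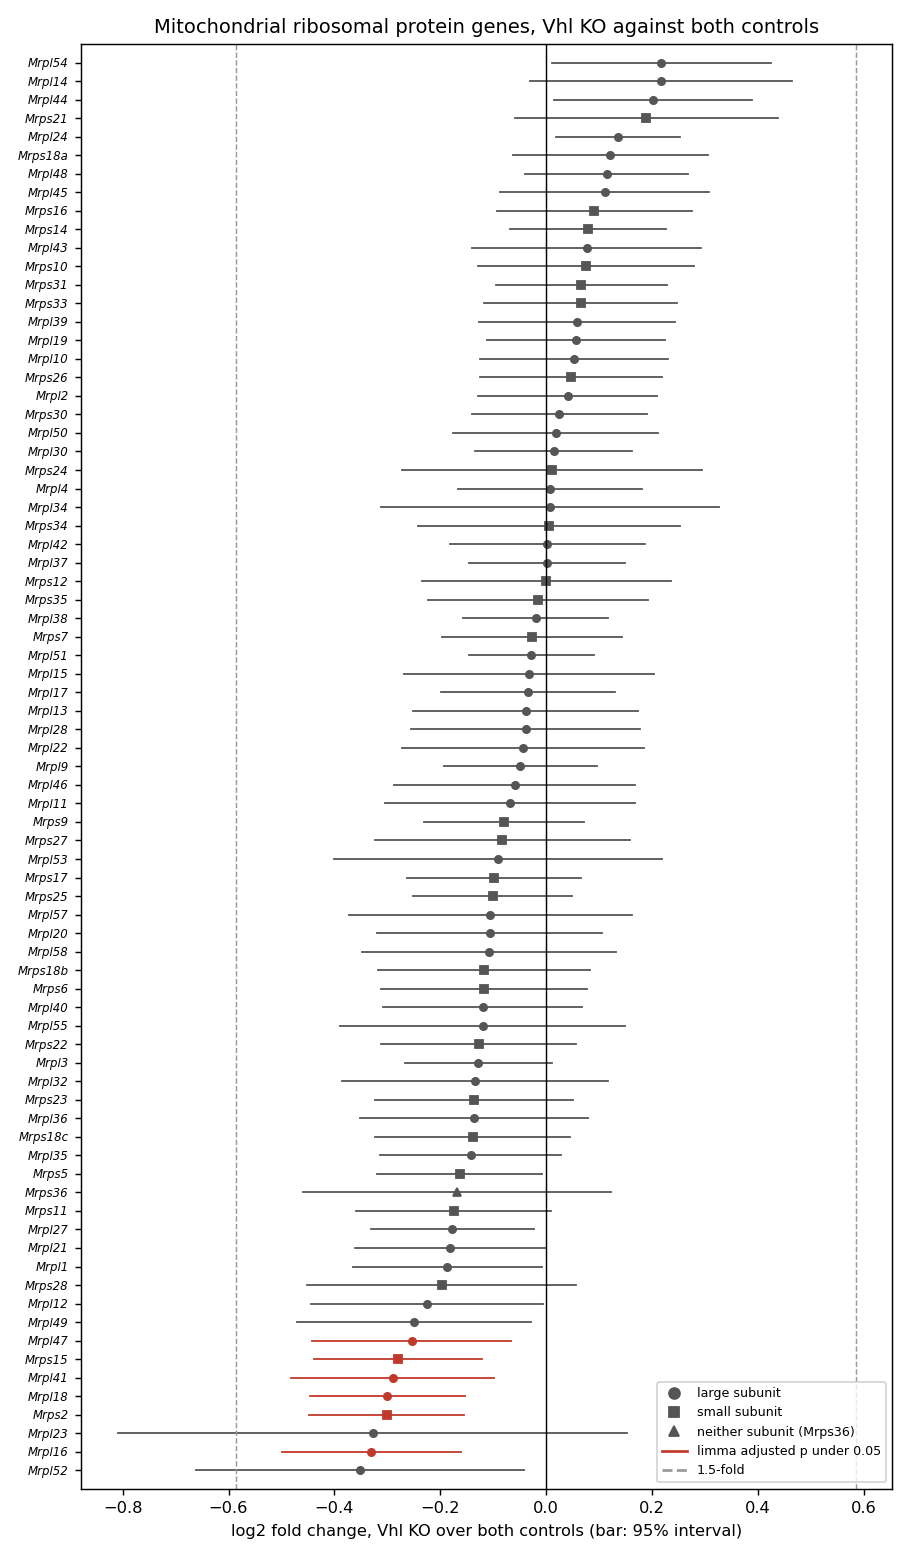
Log2 fold change of each of the 77 members in Vhl KO over both controls (horizontal axis), with its 95% interval from limma, sorted by size; circles are large-subunit, squares small-subunit genes, the triangle is Mrps36, red marks the members with an adjusted p under 0.05 and dashed lines mark 1.5-fold. The points run between -0.35 and 0.22, the 6 red members all lie below 0, and the bars of Mrpl23 and Mrpl52 cross the dashed line.

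Among the large-subunit members, Mrpl16 (ENSMUSG00000024683, chr19:11770391-11774960, plus strand) encodes uL16m, counterpart of the bacterial protein L16 that lies near the peptidyl transferase centre. Mrpl16 was at 18.8, 18.3 and 17.3 normalized reads in the Vhl KO pools, against 24.1, 22.0 and 26.1 in Cre control and 21.7, 24.1 and 20.7 in floxed control pools. All 3 Vhl KO pools lay below all 6 control pools. The means of Mrpl16 were 18.1 ± 0.755 (SD, n = 3) in Vhl KO and 23.1 ± 2.01 (SD, n = 6) in the controls, a log2 fold change of -0.33 (SE 0.076, 95% interval -0.50 to -0.16, limma adjusted p = 0.00645). A group of 6 pools falling wholly above the 3 Vhl KO pools was not rare in this table, since 18.5% of all genes showed it, and 6 of 77 members did.

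Mrpl18 (ENSMUSG00000057388, chr17:12911349-12916345, minus strand) encodes uL18m, counterpart of the bacterial protein L18 of the central protuberance, a knob on the large subunit. Mrpl18 was at 22.1, 23.1 and 22.2 normalized reads in Vhl KO, against 26.7, 28.4 and 27.2 in Cre control and 29.6, 29.9 and 25.6 in floxed control. The groups did not overlap, and the Vhl KO pools were close to each other. The means of Mrpl18 were 22.4 ± 0.551 in Vhl KO (SD, n = 3) and 27.9 ± 1.70 in the controls (SD, n = 6), a log2 fold change of -0.30 (SE 0.065, interval -0.45 to -0.15, limma adjusted p = 0.00487). Exons of Mrpl18 overlap those of Tcp1 on the opposite strand, and no source used here says whether reads were counted by strand, so reads of the pair may be mixed.

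Mrpl41 (ENSMUSG00000036850, chr2:24974117-24975098, minus strand) encodes mL41, a mitochondria-specific protein of the large subunit. Mrpl41 was at 16.3, 14.7 and 13.6 normalized reads in Vhl KO, against 19.3, 19.1 and 18.8 in Cre control and 19.9, 17.7 and 15.7 in floxed control. Floxed control 3, at 15.7, lay below Vhl KO 1, so the groups overlapped there, and the Cre control pools all lay above the Vhl KO pools. The log2 fold change of Mrpl41 was -0.29 (SE 0.086, interval -0.48 to -0.10, limma adjusted p = 0.0221), and the call was lost without Vhl KO 2 or Vhl KO 3. Mrpl47 (ENSMUSG00000037531, chr3:32725397-32737605, minus strand) encodes uL29m, whose bacterial counterpart L29 lies at the exit of the tunnel through which the new chain leaves. Mrpl47 was at 8.02, 8.32 and 8.32 normalized reads in Vhl KO, against 9.91, 10.4 and 9.78 in Cre control and 11.1, 8.80 and 10.1 in floxed control. The groups did not overlap, although floxed control 2 came close to the Vhl KO pools. The log2 fold change of Mrpl47 was -0.25 (SE 0.085, interval -0.44 to -0.07, limma adjusted p = 0.0365), and this was the call that depended most on the libraries and the tool, passing in 5 of 15 alternative settings. Exons of Mrpl47 overlap those of Actl6a and Ndufb5.

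Among the small-subunit members, Mrps2 (ENSMUSG00000035772, chr2:28468066-28471178, plus strand) encodes uS2m, counterpart of the bacterial protein S2. Mrps2 was at 22.4, 22.8 and 20.3 normalized reads in Vhl KO, against 27.8, 27.1 and 27.1 in Cre control and 25.3, 29.0 and 26.5 in floxed control. No control pool was as low as any Vhl KO pool. The means of Mrps2 were 21.8 ± 1.37 in Vhl KO (SD, n = 3) and 27.1 ± 1.24 in the controls (SD, n = 6), a log2 fold change of -0.30 (SE 0.066, interval -0.45 to -0.15, limma adjusted p = 0.00479). Mrps15 (ENSMUSG00000028861, chr4:126046925-126055532, plus strand) encodes uS15m, whose bacterial counterpart S15 binds the small-subunit RNA early in assembly. Mrps15 was at 42.5, 37.3 and 36.9 normalized reads in Vhl KO, against 50.2, 51.0 and 45.6 in Cre control and 50.1, 44.0 and 43.8 in floxed control. The groups did not overlap, with Vhl KO 1 the closest to the controls. The log2 fold change of Mrps15 was -0.28 (SE 0.071, interval -0.44 to -0.12, limma adjusted p = 0.0109), and the call was lost without Vhl KO 2 or Vhl KO 3.

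**Figure D2:**
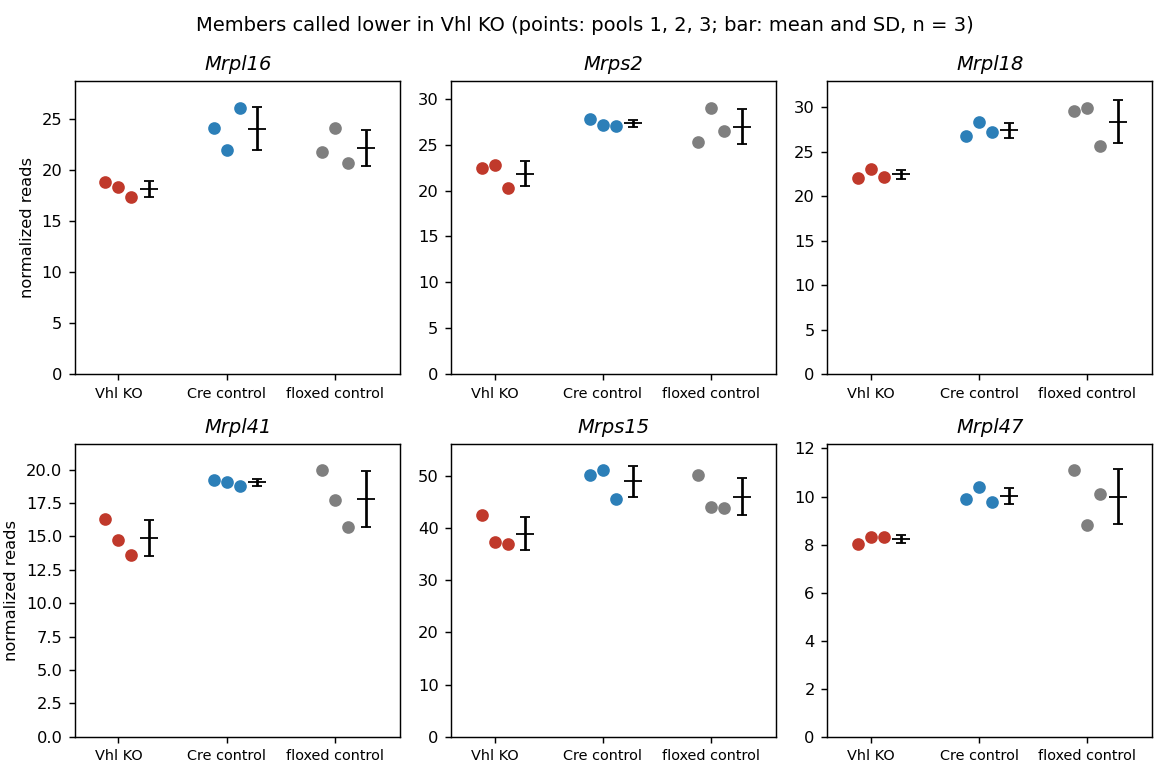
Normalized reads (vertical axis, from 0) of the 6 members with an adjusted p under 0.05, in each pool of Vhl KO, Cre control and floxed control; points are pools 1 to 3 and the bars give the mean and SD of the 3. Vhl KO pools lie below every control pool in 5 of the 6 panels, and in that of Mrpl41 floxed control 3 lies below Vhl KO 1.

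The 6 lower members came from both subunits and from both classes of origin. They were 4 of 50 large-subunit genes and 2 of 26 small-subunit genes, with median log2 fold changes of -0.04 and -0.08 over the 50 and the 26. Of the genes with a bacterial counterpart 5 of 45 were called lower, and of the mitochondria-specific genes 1 of 31 was, Mrpl41. No test of the difference between these classes was made. Exons of 21 of the 77 members overlap those of another listed gene, and 2 of these 21 were called lower, against 4 of the 56 without such an overlap. Over all 77, 29 log2 fold changes were positive and 48 negative, beside 5958 positive and 6045 negative over all genes.

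Members at the edge of the pattern were looked at after their values were known. Mrpl24, encoding uL24m, and Mrpl44, encoding a large-subunit protein with a ribonuclease III-like fold, were the members with all 3 Vhl KO pools above all 6 control pools, where 19.3% of all genes showed this. Mrpl24 was at 49.5, 47.2 and 49.3 normalized reads in Vhl KO, against 44.3, 43.3 and 43.9 in Cre control and 46.3, 41.6 and 45.7 in floxed control (log2 fold change 0.14, interval 0.02 to 0.25, limma adjusted p = 0.0638). Mrpl44 was at 20.1, 20.3 and 21.4 in Vhl KO, against 16.5, 19.5 and 18.7 in Cre control and 19.6, 16.5 and 15.9 in floxed control (log2 fold change 0.20, interval 0.02 to 0.39, limma adjusted p = 0.0812). Neither passed the threshold. Mrpl27, encoding bL27m, also had separated groups and did not pass it, at 18.2, 17.0 and 16.5 normalized reads in Vhl KO, against 19.7, 20.7 and 19.0 in Cre control and 21.0, 18.9 and 18.5 in floxed control (log2 fold change -0.18, limma adjusted p = 0.0657).

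Mrpl52 (ENSMUSG00000010406), encoding the mitochondria-specific large-subunit protein mL52, had the lowest log2 fold change of the 77 without a call. Mrpl52 was at 15.4, 14.2 and 14.0 normalized reads in Vhl KO, against 19.7, 20.7 and 21.6 in Cre control and 21.8, 18.5 and 12.5 in floxed control. The Vhl KO pools were alike and below 5 of the 6 control pools, and floxed control 3 was the lowest of all 9. The log2 fold change was -0.35 (SE 0.14, interval -0.66 to -0.04, limma adjusted p = 0.0702), and without floxed control 3 Mrpl52 was among the members called lower.

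Mrpl23 (ENSMUSG00000037772), encoding uL23m, a protein at the tunnel exit in bacterial ribosomes, was the least abundant member and its value is uncertain. Mrpl23 was at 0.643, 0.715 and 0.9996 normalized reads in Vhl KO, against 1.94, 1.94 and 0.904 in Cre control and 0.489, 0.921 and 1.64 in floxed control. The groups overlapped, and the coefficient of variation over the 9 libraries was 49.4%, the highest among the members, whose median was 9.59% beside 13.0% for all genes. The processed pseudogene Mrpl23-ps1 was listed at 14.7 to 21.7 normalized reads (log2 fold change 0.14, limma adjusted p = 0.364), far above the gene it copies. Reads of a gene and its near-identical copy cannot be told apart by such a count, so no conclusion on Mrpl23 is drawn. The lowest variation was that of Mrpl38, encoding mL38, with a coefficient of variation of 3.89%.

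The other named members covered special roles. Mrps36 (KGD4), which is not a ribosomal gene by function, was at 16.6, 14.7 and 15.2 normalized reads in Vhl KO, against 18.0, 19.7 and 19.5 in Cre control and 19.8, 17.3 and 12.0 in floxed control (log2 fold change -0.17, interval -0.46 to 0.12, limma adjusted p = 0.338). Mrpl58, whose product mL62 is a peptidyl-tRNA hydrolase built into the large subunit that can release stalled chains, was at 13.3, 14.2 and 13.4 in Vhl KO, against 14.2, 14.9 and 15.1 in Cre control and 17.4, 15.6 and 11.7 in floxed control (log2 fold change -0.11, interval -0.35 to 0.13). In both genes floxed control 3 was the lowest library and the other controls were mostly above the Vhl KO pools. Mrps30 was at 25.5, 23.4 and 22.3 in Vhl KO, against 23.5, 21.8 and 24.8 in Cre control and 25.3, 22.4 and 22.1 in floxed control, with full overlap (log2 fold change 0.03, interval -0.14 to 0.19, and -0.02 without the scaling factor).

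Mammals carry 3 mitochondrial paralogs of the bacterial protein S18, and their products take different places in the mitoribosome. Mrps18a (mL66, in the large subunit) averaged 24.2 ± 1.55 normalized reads in Vhl KO (SD, n = 3) and 22.2 ± 1.93 in the controls (SD, n = 6), with a log2 fold change of 0.12 (limma adjusted p = 0.275). Mrps18b (mS40) averaged 20.7 ± 2.84 in Vhl KO and 22.5 ± 1.35 in the controls (log2 fold change -0.12, limma adjusted p = 0.333). Mrps18c (bS18m) averaged 16.6 ± 1.61 in Vhl KO and 18.4 ± 1.43 in the controls (log2 fold change -0.14, limma adjusted p = 0.212). None of the 3 was called, and the difference between paralogs was not tested.

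Levels of different genes were compared per kilobase of annotated exon. On that scale the members had a median of 8.83 normalized reads per kb over the 9 libraries, with a median of 8.90 for the large subunit and 8.56 for the small. The 10th and 90th percentiles of the members, 3.00 and 22.6 normalized reads per kb, were 7.51-fold apart, where those of all genes were 58.7-fold apart. Of the members, 45 of 77 (58.4%) lay within 2-fold of their own median, and of all genes 36.5% lay within 2-fold of theirs. The spread per kb depends on the exon length used, which counts every annotated exon.

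The highest level per kb was that of Mrps21 (bS21m), 39.4 normalized reads per kb, ahead of Mrps15 at 26.3 and Mrps23 (mS23) at 22.3 in the small subunit. In the large subunit the order was Mrpl12 at 26.5, Mrpl10 at 26.0 and Mrpl43 (mL43) at 25.6 normalized reads per kb, which lie so close that they are not set apart. Mrpl10 and Mrpl12 form the stalk that receives translation factors, with uL10m as its base and copies of bL12m attached to it. The lowest levels, beside Mrpl23 at 0.232, were those of Mrps10 (uS10m) at 1.69, Mrps35 (mS35) at 1.77, Mrpl47 at 2.13, Mrps22 (mS22) at 2.37 and Mrpl15 (uL15m) at 2.61 normalized reads per kb.

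Of these most and least abundant members, Mrps15 and Mrpl47 were called lower in Vhl KO. Mrps21 averaged 31.7 ± 2.20 normalized reads in Vhl KO (SD, n = 3) and 27.9 ± 3.93 in the controls (SD, n = 6), with a log2 fold change of 0.19 (interval -0.06 to 0.44). Mrpl12 averaged 36.6 ± 5.58 in Vhl KO and 42.7 ± 3.39 in the controls, a log2 fold change of -0.22 (interval -0.44 to -0.0048, limma adjusted p = 0.0974). The Vhl KO pools of Mrpl12 were widely spread, at 42.7, 35.2 and 31.8, beside 45.9, 39.7 and 41.7 in Cre control and 46.7, 44.0 and 38.3 in floxed control. Its stalk partner Mrpl10 averaged 45.5 ± 2.34 in Vhl KO and 43.9 ± 4.23 in the controls (log2 fold change 0.05, interval -0.13 to 0.23). Neither gene of the stalk pair was called, and the difference between them was not tested. The log2 fold changes of the rest were 0.08 for Mrpl43, -0.14 for Mrps23, 0.08 for Mrps10, -0.02 for Mrps35, -0.13 for Mrps22 and -0.03 for Mrpl15.

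**Figure D3:**
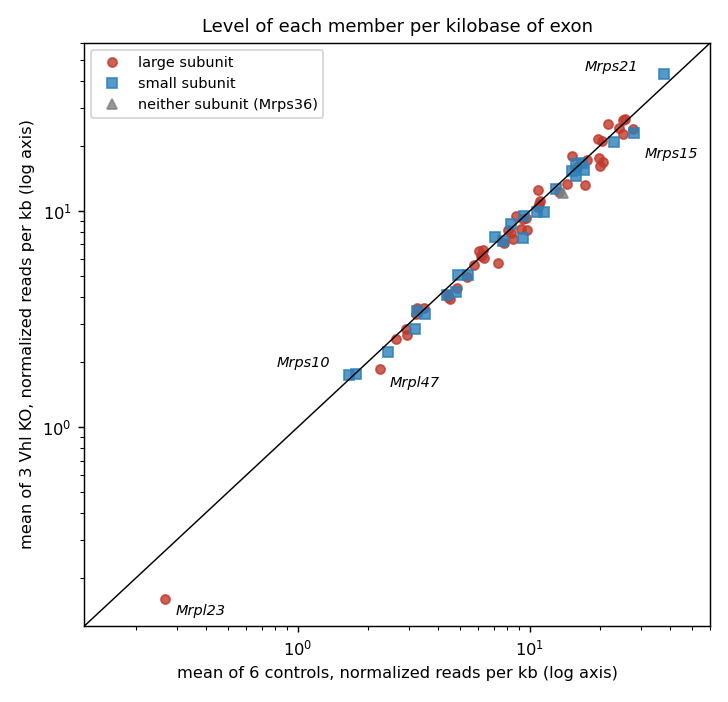
Mean level of each member in Vhl KO (vertical, n = 3) against both controls (horizontal, n = 6), in normalized reads per kb of exon on log axes, with the line of equal level; circles are large-subunit, squares small-subunit genes and the triangle is Mrps36. All members but Mrpl23 stay close to the line, and the levels run between 0.232 (Mrpl23) and 39.4 (Mrps21) normalized reads per kb over all 9 libraries.

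Summed over the 77 members, the level was 1752, 1655 and 1604 normalized reads in the Vhl KO pools, against 1818, 1741 and 1751 in Cre control and 1825, 1742 and 1524 in floxed control. The means were 1670 ± 75.4 in Vhl KO, 1770 ± 41.8 in Cre control and 1697 ± 155 in floxed control (SD, n = 3 each), and floxed control 3 was the lowest library of all. As a share of all reads in the table, which needs no scaling factor, the members took 0.170, 0.165 and 0.155% in Vhl KO, against 0.183, 0.176 and 0.170% in Cre control and 0.181, 0.176 and 0.164% in floxed control. By this share the Vhl KO pools lay in the lower part of the range and overlapped the controls. By the summed normalized reads they overlapped as well, and Vhl KO 1, at 1752, lay above Cre control 2 at 1741 and floxed control 2 at 1742. The summed large-subunit level was 2.02 ± 0.021 times the small-subunit level in Vhl KO, 1.99 ± 0.035 times in Cre control and 1.98 ± 0.031 times in floxed control, so the balance of the 2 subunits' RNA differed by about as much as the pools of a genotype did. No p is given for sums over the members.

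**Figure D4:**
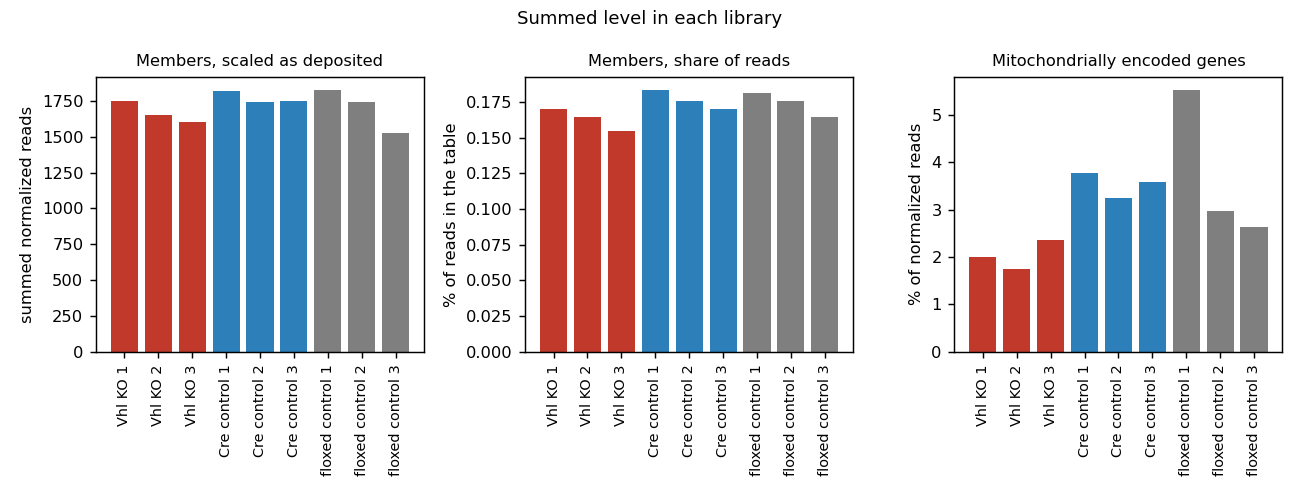
Summed level of the 77 members in each library as normalized reads (left) and as a percentage of the reads in the table (middle), and the percentage of normalized reads of the 13 mitochondrially encoded protein genes (right); bars start at 0, with Vhl KO first, then Cre control and floxed control. The members' bars differ little, between 1524 and 1825 normalized reads, while for the mitochondrially encoded genes the Vhl KO libraries lie below all control libraries.

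Each control on its own gave a similar picture, with both comparisons resting on the same Vhl KO libraries. Against Cre control, 0 members were called higher and 6 lower (34.0% of all genes called, 16.3% higher and 17.7% lower), with a median log2 fold change of -0.09. At an unadjusted p under 0.05 there were 13 of 77 members, beside 5255 of all 12003 genes. Against floxed control, 0 were called higher and 4 lower (34.3% of all genes, 17.5% higher and 16.8% lower), with a median of -0.03. Here 9 of 77 members had an unadjusted p under 0.05, beside 5315 of all 12003 genes. The sign of this median against floxed control rested on single libraries: it was 0.034 without floxed control 1, 0.0080 without Vhl KO 3, 0.0024 without floxed control 2, -0.018 without Vhl KO 2, -0.066 without Vhl KO 1 and -0.11 without floxed control 3. The members called against Cre control were Mrpl16 (log2 fold change -0.39, limma adjusted p = 0.0072), Mrps2 (-0.31, adjusted p = 0.0104), Mrps15 (-0.32, adjusted p = 0.0129), Mrpl18 (-0.28, adjusted p = 0.0178), Mrpl41 (-0.34, adjusted p = 0.0244) and Mrpl52 (-0.48, adjusted p = 0.0435). Those called against floxed control were Mrpl18 (-0.32, adjusted p = 0.00848), Mrps2 (-0.29, adjusted p = 0.0142), Mrpl16 (-0.27, adjusted p = 0.0354) and Mrps15, which lay just under the threshold (-0.24). Mrpl41 (-0.24, adjusted p = 0.0878), Mrpl47 (-0.25, adjusted p = 0.0744) and Mrpl52 (-0.22, adjusted p = 0.312) did not pass it against floxed control. Leaving out a library moved these counts, to 2 without Vhl KO 3 and 3 without Cre control 2 against Cre control, and against floxed control to 1 without Vhl KO 3, 2 without Vhl KO 2, floxed control 1 or floxed control 2, and 6 without floxed control 3. The difference between the controls, which is also the test of whether the choice of control matters, was not called for Mrpl52 (log2 fold change 0.25, adjusted p = 0.672).

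Cre control and floxed control differ both in the Cre transgene and in the floxed Vhl alleles, so comparing them does not show the transgene on its own. Between Cre control and floxed control 0 members were called by limma, edgeR and DESeq2 alike. An unadjusted limma p under 0.05 was found for 1 of 77 members (Mrpl51, encoding mL51), beside 961 of the 12003 genes. By the adjusted p, limma called 0.167% of the 12003 genes, with 0.0667% above the floxed control and the rest below. Of the log2 fold changes of the members in Cre control over floxed control, 65 were positive and 12 negative, beside 6378 and 5624 over all genes. The members' median was 0.07, beside 0.01 over all genes. Without floxed control 3 that median was -0.01, and it was 0.13 without floxed control 1.

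The other genes needed for mitochondrial translation gave a background to the members. The 5 mitoribosomal subunits with symbols outside the family (Dap3, Gadd45gip1, Ptcd3, Chchd1 and Aurkaip1) had no call, and their log2 fold changes had a median of 0.04. Dap3, a small-subunit protein that binds GTP, averaged 48.4 ± 0.862 normalized reads in Vhl KO (SD, n = 3) and 43.7 ± 2.61 in the controls (SD, n = 6), with a log2 fold change of 0.15 (limma adjusted p = 0.0612). Of 28 genes for mitoribosome assembly and ribosomal RNA modification, 2 were called higher and 1 lower. Noa1, a GTPase of small-subunit assembly, was lower (16.5 ± 1.06 in Vhl KO and 20.1 ± 1.06 in the controls, log2 fold change -0.27, limma adjusted p = 0.013). Mettl15, a methyltransferase of the small-subunit RNA, was higher (4.84 ± 0.686 in Vhl KO and 3.38 ± 0.503 in the controls, log2 fold change 0.41, adjusted p = 0.0255), as was Mtg2, a GTPase of large-subunit assembly (log2 fold change 0.22, adjusted p = 0.0313).

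Of 15 translation factors and insertion factors measured, Oxa1l was called lower and none higher. Oxa1l, the inner-membrane insertase that receives new chains at the tunnel exit, averaged 41.4 ± 3.17 normalized reads in Vhl KO (SD, n = 3) and 50.6 ± 3.63 in the controls (SD, n = 6), with a limma adjusted p of 0.0137 for a log2 fold change of -0.28 (SE 0.076). Of 20 genes that charge mitochondrial tRNAs, 3 were called higher and 1 lower. Nars2 and Fars2, the asparaginyl- and phenylalanyl-tRNA synthetases, were higher (log2 fold changes 0.33 and 0.32, adjusted p = 0.00602 and 0.0154), and Qrsl1, a subunit of the enzyme that completes glutaminyl-tRNA, was lower (-0.36, adjusted p = 0.00931). These lists, like the members, had fewer calls than the 39.8% of all genes.

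Upstream of the mitoribosome, of 18 genes of mitochondrial transcription, RNA processing and DNA maintenance 3 were called higher and 2 lower. The largest of these was Lonp1, the main protease of the matrix, at 88.4, 86.5 and 86.1 normalized reads in Vhl KO, against 60.1, 58.9 and 63.3 in Cre control and 59.2, 61.3 and 61.2 in floxed control (limma adjusted p = 1.54e-05 for a log2 fold change of 0.51, SE 0.045). The groups of Lonp1 were far apart and each was tight. Mgme1, a mitochondrial exonuclease, was higher (log2 fold change 0.36, adjusted p = 0.00803) and Tfb2m, a mitochondrial transcription factor, lower (-0.20, adjusted p = 0.0197). Of 10 regulators of mitochondrial biogenesis measured, 2 were called higher and 2 lower. That is near the share of all genes tested, 19.7% higher and 20.2% lower. Mxi1, an antagonist of Myc, averaged 183 ± 5.80 in Vhl KO and 75.2 ± 5.84 in the controls (log2 fold change 1.27, adjusted p = 2.7e-07), Myc itself 65.7 ± 16.2 in Vhl KO and 37.3 ± 7.25 in the controls (0.79, adjusted p = 0.00603), and Nfe2l2, the factor of the oxidative stress response, 162 ± 20.2 in Vhl KO and 243 ± 23.9 in the controls (-0.58, adjusted p = 0.00106). Of 23 protein import genes 1 was called higher, Tomm6 of the outer-membrane entry pore (log2 fold change 0.45, adjusted p = 0.00658), and 3 lower.

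The RNAs that mitoribosomes read gave a contrast to the RNAs of the mitoribosomal proteins, and no protein was measured. Of the 13 proteins encoded in mitochondrial DNA, 7 transcripts were called lower and none higher in Vhl KO. Of all genes tested, 20.2% were called lower and 19.7% higher. The 13 log2 fold changes had a median of -0.70. The transcript mt-Cytb, for cytochrome b, was at 2378, 1978 and 2719 normalized reads in Vhl KO, against 5334, 4297 and 5171 in Cre control and 7704, 3911 and 3269 in floxed control (log2 fold change -1.03, limma adjusted p = 0.00679). All Vhl KO pools were below all controls, and the floxed control pools were widely spread. The 13 together took 2.03 ± 0.309% of normalized reads in Vhl KO, 3.53 ± 0.269% in Cre control and 3.71 ± 1.58% in floxed control (SD, n = 3 each). The 2 mitochondrial ribosomal RNAs were looked at after the other values were known. The larger, mt-Rnr2, was at 262, 193 and 316 normalized reads in Vhl KO, against 397, 447 and 360 in Cre control and 469, 444 and 236 in floxed control (limma adjusted p = 0.0517 for a log2 fold change of -0.60, SE 0.22), and the smaller, mt-Rnr1, had a log2 fold change of -0.18 (adjusted p = 0.638). Neither passed the threshold, and ribosomal RNA is poorly sampled by poly(A) selection. Dendritic cell markers, and some markers of lung epithelium and of alveolar macrophages, moved with the genotype, as given above. Some markers of interstitial macrophages or monocytes were called lower against floxed control, and none against Cre control. The part of all these markers in the results on the members was not tested.

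**Figure D5:**
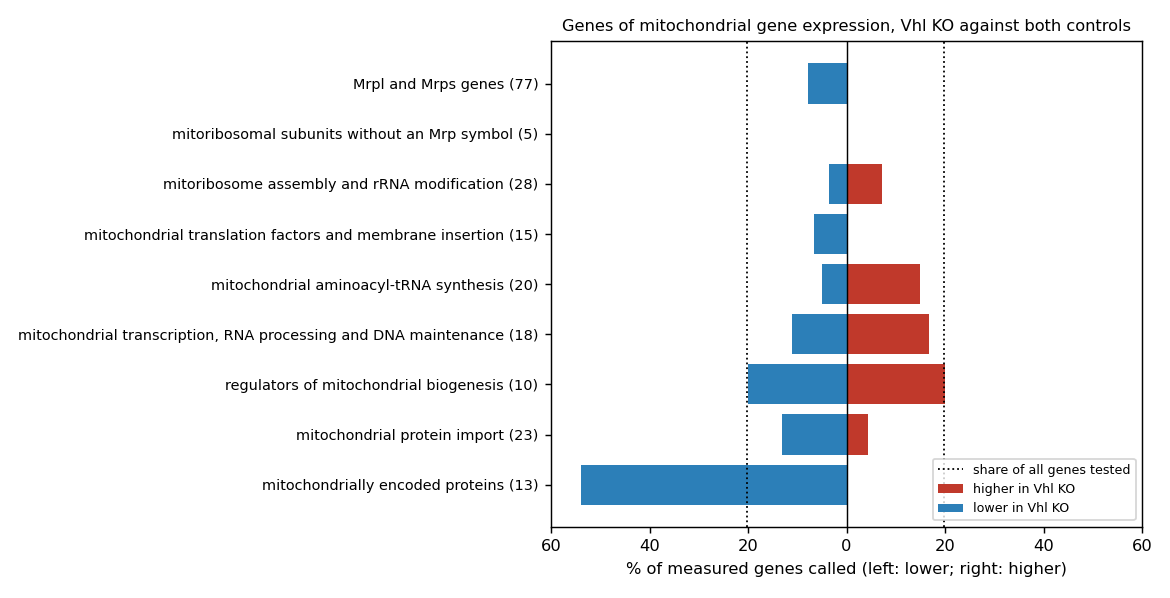
Percentage of the measured genes of each list called lower (left of 0, blue) or higher (right of 0, red) in Vhl KO than in both controls, with the number measured in brackets; the dotted lines give the share of all genes tested, 20.2% lower and 19.7% higher. The Mrpl and Mrps genes have 7.79% lower and none higher, and the mitochondrially encoded genes, 7 of 13 lower, pass the dotted line.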

How the data were processed

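Poly(A) RNA of 9 pools was sequenced as single reads of 61 bases, per the labels' protocols. The submitters' processing notes name RSEM 1.2.3, cutadapt 1.3, CASAVA 1.8.2 and the build GRCm38; no source used here gives later steps or the annotation. The authors deposited a signal per gene and library for 12003 genes: a whole number of reads times a library factor (100% of values whole within 0.01 read), not divided by length. The library factors matched those of edgeR's default normalization of the recovered counts, with a ratio of 1 in each of the 9 libraries. RSEM shares reads between similar genes, so copies such as Mrpl23 and Mrpl23-ps1 are uncertain. Each gene reaches 0.962 in at least 3 libraries, so the table was filtered before deposit; 0 columns were left out. One read equals 0.0400 to 0.0565 normalized reads, and members had 23.3 to 943 reads per library on average (median 447), which covers counting error only.

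Symbols, positions and exon lengths came from GENCODE M21 (11935 identifiers named). Values were tested as log2(value + 1), a scale that understates the change of low genes, with limma 3.58.1 in R 4.3.3: a mean per genotype, all 9 libraries, empirical Bayes with an intensity trend, two-sided, Benjamini-Hochberg over all genes, called at an adjusted p under 0.05. The script was tested on simulated data. Nothing says more of the pools than their genotype and mice, so p-values measure the spread between pools. Alternatives were a pseudocount of 0.1, genes with a mean of at least 5, edgeR 4.0.16 and DESeq2 1.42.0 on the recovered counts, no scaling factor, a replicate block, leaving out each library, and fitting only the genotypes compared. Named members are those called, the 3 most and 3 least abundant per kb in each subunit and members with special roles; of the other lists, up to 3 called genes each. Members, lists and motifs were chosen with earlier results of these data known.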

Additional observations from a re-analysis of the deposited data

Results flagged for a closer look

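Of 24 values tested over the 6 control libraries together, 4 had a library whose gap to its nearest neighbour exceeded Dixon's 95% critical value for 6 values, and in all 4 the library was floxed control 3, on the low side. Chance flags about 1 in 20 such groups, and groups of 3 were not tested. Mrpl52 was at 12.5 normalized reads in floxed control 3, with a gap of 0.643 of the range. Mrpl15 was at 16.9 normalized reads there, with a gap of 0.788. Mrps36 was at 12.0 normalized reads, with a gap of 0.682. The summed level of the 77 members was 1524 normalized reads, with a gap of 0.723. The scaling factor of this library, given above, moves with these values, and its part in them was not tested.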

How the results depend on the processing

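Mrpl16, Mrpl18 and Mrps2 were called lower in Vhl KO than in both controls in 15 of 15 alternatives, Mrpl41 and Mrps15 in 13 and Mrpl47 in 5 (adjusted p 0.0174 to 0.115). Against floxed control the call was made for Mrpl18 in 16 of 16 alternatives, Mrps2 in 14, Mrpl16 in 10 and Mrps15 in 6. Against Cre control it was made for Mrpl16 and Mrps2 in 16 of 16, Mrps15 in 14, Mrpl18 in 13, Mrpl41 in 11 and Mrpl52 in 9. A pseudocount of 0.1, the filter on low means, edgeR and DESeq2 each gave 6 members lower, with Mrpl52 in place of Mrpl47 in DESeq2. Without the scaling factor, 12 were lower against both controls and 7 against floxed control. When single libraries were left out, 3 to 10 members were lower against both controls: 3 without Vhl KO 3 (Mrpl16, Mrpl18 and Mrps2) and 10 without floxed control 3. Likewise 1 to 6 were lower against floxed control (1 without Vhl KO 3, 2 without Vhl KO 2, floxed control 1 or floxed control 2, 6 without floxed control 3) and 2 to 7 against Cre control (2 without Vhl KO 3, 3 without Cre control 2). Of higher members there were 0 to 1 against both controls (Mrpl54 without Cre control 1, Mrpl44 without floxed control 1) and 0 to 1 against floxed control (Mrpl44). With single libraries left out, the median log2 fold change of the members ran between -0.10 and -0.0072 against both controls, -0.12 and -0.03 against Cre control, and -0.11 and 0.034 against floxed control, above 0 without Vhl KO 3, floxed control 1 or floxed control 2; for Cre control over floxed control it ran between -0.01 and 0.13. Signs changed in 3 named members that were not called: Mrpl15 (-0.11 to 0.030 when single libraries were left out, above 0 without Vhl KO 3 or floxed control 1), Mrps35 (-0.074 to 0.015, above 0 without Cre control 3, Vhl KO 2, floxed control 1 or floxed control 2) and Mrps30 (-0.025 to 0.067, below 0 without Vhl KO 1, and -0.022 without the scaling factor). The causes were not tested. Depth limits Mrpl23 above all, at 23.3 reads per library.

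Replicate numbers are shared between genotypes, but same-numbered pools did not all deviate together: over 9829 genes the correlations of their deviations were 0.33, 0.23 and 0.03 between Vhl KO and Cre control, 0.58, -0.05 and 0.17 between Vhl KO and floxed control, and 0.20, 0.098 and -0.08 between Cre control and floxed control. Pools numbered 1 matched each other best, and the others did not always. With the replicate number as a block, 6 members were lower against both controls (Mrpl12 in place of Mrpl47), 4 against floxed control (Mrpl12 in place of Mrpl16) and 6 against Cre control, and none was higher.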

Other observations

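Among the genes that charge mitochondrial tRNAs, Lars2, the leucyl-tRNA synthetase, varied widely between pools of the same genotype. Lars2 was at 549, 385 and 829 normalized reads in Vhl KO, against 832, 471 and 275 in Cre control and 211, 297 and 77.6 in floxed control. The means were 588 ± 225 in Vhl KO (SD, n = 3) and 360 ± 264 in both controls (SD, n = 6), with a log2 fold change of 0.98 (95% interval -0.02 to 1.97, limma adjusted p = 0.111). The groups overlapped, and floxed control 3 was again the lowest library. This gene was named after its values were seen.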
